A study of Mus musculus with 24 samples.

Results

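The genes described here encode 5 neurotrophic ligands (Bdnf, Ntf3, Ntf5, Gdnf and Artn) and 4 receptors of neurotrophic factors (Ngfr, Ntrk2, Gfra1 and Cntfr), and were followed in mouse skeletal muscle. They were chosen by name, as 9 of the 54532 genes in the count files, and all 9 were found. RNA came from the left gastrocnemius muscle of wild-type C57/BL6 mice, in 24 libraries that form 6 groups of 4. Control females and control males were sedentary and had 2 intramuscular injections of 20 µl of saline at pH 7.2, 5 days apart. Sedentary pain animals of both sexes instead had acid at pH 5.0 on both days, with 6 min of electrically evoked contraction just before the second injection. Active pain animals of both sexes had running wheels for 8 weeks and then the same acid and contraction. Every sample is labelled 24 h, and no label gives an age. No group ran without the pain model, and controls had neither acid nor contraction, so acid and contraction cannot be told apart and running was compared only among animals with the pain model. No label says whether 2 libraries came from separate animals, so p-values measure only the spread between these samples.

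Neurotrophic factors are secreted proteins that keep sensory and motor neurons alive and shape their endings. In skeletal muscle they are made by fibres, Schwann cells and other cells around the nerve, and the receptors sit both on axons and on cells of the muscle itself. BDNF and neurotrophin-4 (the Ntf5 product) signal through the tyrosine kinase TrkB (Ntrk2), neurotrophin-3 (Ntf3) mainly through TrkC (Ntrk3), and all neurotrophins also bind p75 (Ngfr). GDNF and artemin (Artn) bind GPI-anchored GFRα proteins, of which Gfra1 serves GDNF, and these pass the signal to RET. CNTFRα (Cntfr) is the ligand-binding subunit for ciliary neurotrophic factor and works with the signalling chains LIFR and gp130. In muscle pain, neurotrophic factors are studied because they can sensitise sensory neurons, whose cell bodies lie in ganglia outside the muscle.

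Libraries held between 17612139 and 34039699 counts, and no 2 libraries were identical. Levels are given as CPM, counts scaled to a common library size with factors from the trimmed mean of M-values (TMM). Tests were edgeR quasi-likelihood F tests, with p-values adjusted over all genes tested (Benjamini-Hochberg) and a threshold of 0.05. In female sedentary pain against control, 4867 of 14511 genes passed (33.5%), and 1730 passed in female active against sedentary pain (11.9%). No gene passed in female active pain against control or in any male comparison, where 1020 (female) and 1273, 1045 and 121 (male sedentary pain, active pain and active against sedentary pain) had an unadjusted p under 0.05. Skeletal muscle markers summed to 78100 to 187000 CPM in every library, with the lowest sums in replicates 3 and 4 of female sedentary pain, at 88700 and 78100 CPM. The same 2 libraries had the highest sums of 10 macrophage and monocyte markers, at 3370 and 4460 CPM, against 418 and 589 in replicates 1 and 2 and 90.7 to 195 in female controls. Of 8 axon and neuron markers, Nefl, Nefm, Nefh, Snap25 and Rbfox3 had at most 3 counts in every female control library, and the whole list summed to 2.13 to 8.40 CPM across the 24 libraries. In bulk tissue, fewer cells of a type and less RNA per cell cannot be told apart.

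The receptors were well detected and most ligands were scarce. Cntfr, Gfra1, Ntrk2, Ngfr, Ntf3 and Ntf5 had at least 10 counts in every library. Artn was at the limit of detection: it had 0 to 10 counts per library, 3 or fewer in 12 of 24 libraries, and 0 in 2 of them. In those with a count of 0, the floor of 3 counts was 0.105 CPM in male control replicate 1 and 0.102 CPM in male sedentary pain replicate 2. The upper ends of the 95% Poisson intervals were 0.129 and 0.126 CPM, counting error only. Gdnf had 1 to 16 counts and was at 3 or fewer in 4 libraries, and Bdnf had 2 to 41 counts and was at 3 or fewer in 2. With a limit of more than 3 counts in at least 12 of the 24 libraries, no gene of the 9 was below detection, and Artn sat exactly on that limit. With 10 counts as the limit, Bdnf (under 10 in 13 libraries), Gdnf (17) and Artn (23) were below detection. The filter on low counts removed Gdnf and Artn from the tests in females and Bdnf and Artn from those in males, so 7 of the 9 genes were tested in each sex.

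Per exon length (RPKM, CPM per kilobase of exon), Cntfr was the most abundant of the 9 genes in all 6 groups, at 5.93 ± 0.82 RPKM in female controls and 6.06 ± 0.45 in male controls (mean ± SD, n = 4). Its values did not overlap those of the next gene, Ntf5, in any group. Ntf5 stood second in every group, at 1.84 ± 0.58 RPKM in female controls and 2.18 ± 0.29 in male controls. In female controls the next 4 genes were Ntrk2 at 1.10 ± 0.86, Gfra1 at 0.802 ± 0.149, Ntf3 at 0.759 ± 0.133 and Ngfr at 0.548 ± 0.254 RPKM, and each overlapped its neighbour. In male controls Gfra1 came next at 1.10 ± 0.05 RPKM and did not overlap Ntf3 at 0.727 ± 0.068, which overlapped Ntrk2 at 0.563 ± 0.271. Bdnf, Artn and Gdnf filled the last places in all groups, at means of 0.0261 to 0.141 RPKM, with overlapping values between neighbours.

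**Figure D1:**
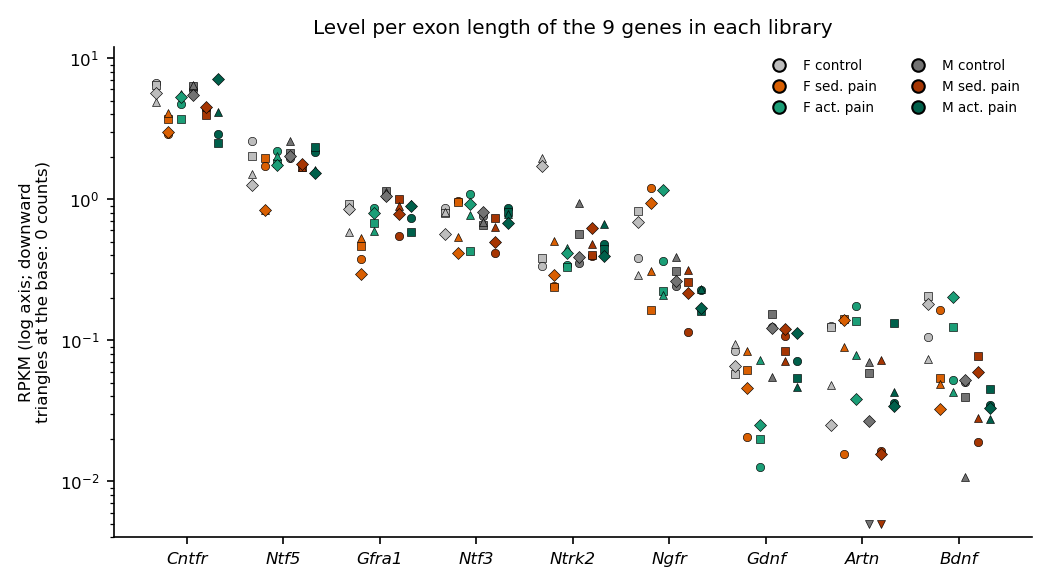
Level per exon length (RPKM, log axis) of the 9 genes in each of the 24 libraries; colours mark the 6 groups (F female, M male; sed. sedentary, act. active), point shapes the replicate, and downward triangles at the base the 2 libraries with 0 Artn counts. Cntfr lies above Ntf5 in every group, and Gdnf, Artn and Bdnf are lowest.

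No ligand passed the test in any comparison. Bdnf (chromosome 2, 109674700 to 109727007, plus strand, GRCm38), the TrkB ligand, was at 0.656, 1.28, 0.462 and 1.12 CPM in female controls, replicates 1 to 4. Its values in female sedentary pain were 1.02, 0.338, 0.306 and 0.202 CPM, and in female active pain 0.326, 0.769, 0.267 and 1.25 CPM, and the 3 groups overlapped. The difference of female sedentary pain from control was −0.89 ± 0.58 on the log2 scale (SE; edgeR adjusted p = 0.241). Without sedentary pain replicate 1, the highest of its group, it was −1.59 and passed (adjusted p = 0.0437). In males the 12 values ran from 0.0671 to 0.478 CPM. Between controls, male values of 0.0671 to 0.323 CPM lay below all female values, as those of 8.73% of all genes did, a log2 difference of −1.89 ± 0.56 that did not pass the test (edgeR unadjusted p = 0.00284, adjusted p = 0.0783). It passed with DESeq2 (adjusted p = 0.0345), with 1 surrogate variable (0.00517), with a correction for GC content and length (0.0365) and without female sedentary pain replicate 1 (0.0461), and adjusted p ranged from 0.00517 to 1.0 over the 35 alternatives. These values rest on 2 to 37 counts per control library. An antisense gene, Gm45346, shares 896 bases of exon with Bdnf and was listed at 0 in every library.

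Ntf5 (chromosome 7, 45413695 to 45417179), the gene of neurotrophin-4, was the most abundant ligand of the 5 in every group, per exon length. Female controls had 6.83, 5.37, 4.04 and 3.33 CPM, female sedentary pain 4.56, 5.24, 2.21 and 2.22 CPM, and female active pain 5.83, 4.83, 5.37 and 4.65 CPM. In controls and in sedentary pain, replicates 3 and 4 were below replicates 1 and 2. The sedentary pain difference of −0.43 ± 0.31 (log2) did not pass (edgeR adjusted p = 0.272). Male controls had 5.18 to 6.88 CPM, male sedentary pain 4.45 to 4.72, with no overlap, and male active pain 4.05 to 6.18.

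Ntf3 (chromosome 6, 126101412 to 126166910), the TrkC ligand, kept within 0.707 to 1.86 CPM over the 24 libraries. Its group means ran from 0.980 ± 0.246 CPM in male sedentary pain to 1.38 ± 0.48 in female active pain, and the female sedentary pain difference was −0.06 ± 0.35 (log2; edgeR adjusted p = 0.898). Gdnf (chromosome 15, 7810846 to 7837575), a survival factor for motor neurons, had means of 0.277 ± 0.060 CPM in female controls, 0.194 ± 0.097 in sedentary pain and 0.120 ± 0.100 in active pain. In males the Gdnf means were 0.418 ± 0.154, 0.352 ± 0.083 and 0.261 ± 0.108 CPM in the same order, and all neighbouring groups overlapped. Artn (chromosome 4, 117926162 to 117929763), the ligand of GFRα3, summed to 19, 24 and 26 counts over the 4 libraries of female control, sedentary pain and active pain. In males it summed to 11, 6 and 15 counts. Differences between groups in Gdnf (females) and Artn were not tested at these counts.

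Among the receptors, Cntfr, Gfra1 and Ntrk2 fell in female sedentary pain against control. They make 3 of the 7 members tested, all lower, while 13.9% of all genes tested were called lower and 19.6% higher. For 2 of the 7, Cntfr and Gfra1, the groups did not overlap, as for 11.8% of all genes in that direction. The median log2 change was −0.75 over the 7 members and −0.02 over all genes. The members of this list were chosen with earlier results of these data known, and the share is given as a description.

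Cntfr (chromosome 4, 41657498 to 41697089, minus strand) was at 18.7, 17.9, 13.6 and 15.8 CPM in female controls and at 8.13, 10.3, 11.4 and 8.35 CPM in female sedentary pain. All 4 sedentary pain libraries were below all 4 controls. The log2 change was −0.75 ± 0.17, or 1.68-fold lower (edgeR adjusted p = 0.00934). Library numbers carried by the deposited count tables part replicates 1 and 2 from replicates 3 and 4, and within these sets the means were 1.98-fold and 1.49-fold lower.

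Gfra1 (chromosome 19, 58235604 to 58455909, minus strand) was at 4.68, 5.03, 3.19 and 4.66 CPM in female controls and at 2.07, 2.53, 2.91 and 1.62 CPM in female sedentary pain, again without overlap. The log2 change was −0.91 ± 0.23, or 1.87-fold lower (edgeR adjusted p = 0.0141), and the means were 2.11-fold and 1.73-fold lower within the same sets. When the 2 libraries with the highest macrophage sums were left out, the other 2 sedentary pain libraries, whose sums of 418 and 589 CPM were still above those of controls, gave −0.92 for Gfra1 (edgeR adjusted p = 0.0496) and −0.82 for Cntfr (adjusted p = 0.0375). With female controls 1 and 2 as the only controls the changes were −1.05 (adjusted p = 0.0358) and −0.90 (adjusted p = 0.0311). These 2 fits were chosen after the data were seen. Beside these falls, 5 smooth muscle cell and pericyte markers summed to 364 to 378 CPM in female controls and 189 to 308 CPM in sedentary pain, without overlap, with 2 of 5 called lower. The 4 endothelial markers summed to 162 to 179 CPM in controls and 120 to 149 CPM in sedentary pain, also without overlap. Of these, 2 of 4 were called lower, and 13.9% of all genes tested were called lower in this comparison. Fibroblast markers summed to 693 to 836 and 692 to 1590 CPM, and neutrophil markers to 0.885 to 3.48 and 20.9 to 243 CPM. Counts from mitochondrial genes made up 8.59 to 11.02% of each control library and 8.22, 3.85, 5.86 and 2.75% of the sedentary pain libraries, again without overlap. The part of these cells and of the mitochondrial share was not tested. The antisense gene Gm16277 shares 416 bases of exon with Gfra1 and was listed at 0 in every library.

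Ntrk2 (chromosome 13, 58806569 to 59133970, plus strand) was at 6.48, 7.37, 37.7 and 33.4 CPM in female controls and at 4.71, 4.62, 9.68 and 5.56 CPM in female sedentary pain, and the groups overlapped. The log2 change was −1.76 ± 0.54 (edgeR adjusted p = 0.0289). It rested on control replicates 3 and 4: with replicates 1 and 2 as the only controls it was −0.13 (adjusted p = 0.774), and the means were 1.48-fold lower in replicates 1 and 2 against 4.66-fold in replicates 3 and 4. The call was also lost when control replicate 3 (−1.33, adjusted p = 0.0698), control replicate 4 (−1.46, 0.0751), sedentary pain replicate 2 (−1.63, 0.0697) or sedentary pain replicate 4 (−1.69, 0.0784) was left out. Those 2 control libraries had the highest adipocyte marker sums of all 24 libraries: Adipoq, Plin1, Lep and Cidec together reached 811 CPM in replicate 3 and 419 in replicate 4, against 62.2 and 36.9 in replicates 1 and 2. In female sedentary pain the adipocyte sum was 15.8, 37.7, 102 and 16.4 CPM, and the library with the highest sum, replicate 3, also had the highest Ntrk2. In female active pain the highest sum, 89.4 CPM in replicate 1, went with 6.57 CPM of Ntrk2, and the highest Ntrk2, 8.65 CPM in replicate 3, with a sum of 55.6 CPM. In male controls the library with the highest sum, 177 CPM in replicate 3, had 18.2 CPM of Ntrk2, against 6.78 to 10.9 in the others. The part of adipose tissue in the Ntrk2 change was not tested. Counts per gene do not separate the full-length from the truncated TrkB transcript.

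**Figure D2:**
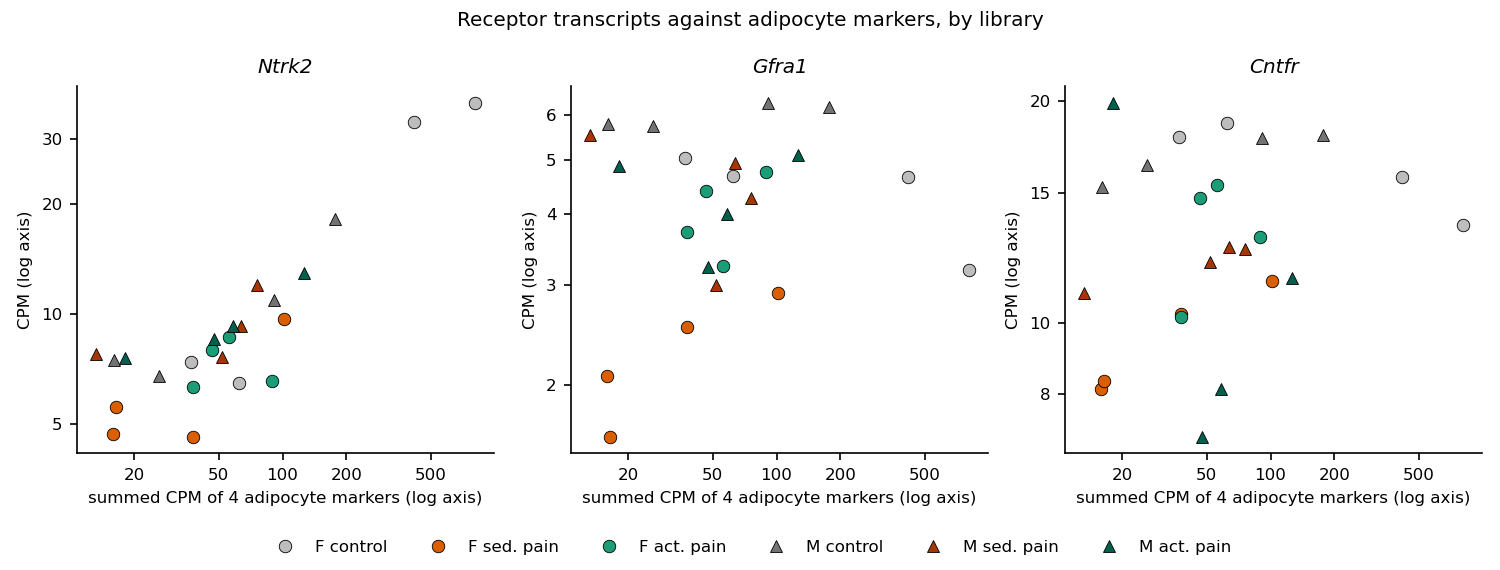
CPM of Ntrk2, Gfra1 and Cntfr (vertical, log axis) against the summed CPM of 4 adipocyte markers (horizontal, log axis), 1 point per library, circles for females and triangles for males. The 2 female controls with sums of 811 and 419 CPM have the highest Ntrk2, at 37.7 and 33.4 CPM, while their Gfra1 (3.19 and 4.66 CPM) and Cntfr (13.6 and 15.8 CPM) lie within the range of the other controls or below it.

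Ngfr (chromosome 11, 95568818 to 95587735), the p75 receptor, varied more between replicates than between groups in females. Controls had 1.31, 2.85, 1.0 and 2.39 CPM, sedentary pain 4.14, 0.563, 1.07 and 3.23, and active pain 1.26, 0.769, 0.724 and 4.04. The sedentary pain difference was 0.29 ± 0.67 (log2; edgeR adjusted p = 0.748). Male values were narrower, from 0.394 to 1.34 CPM over 12 libraries. Ngfr is also a Schwann cell gene, and 17 Schwann cell markers summed to 409, 92.1, 118 and 318 CPM in female active pain, where replicate 4 had the highest Ngfr and replicate 1 the highest marker sum. The part of Schwann cells in the Ngfr values was not tested.

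**Figure D3:**
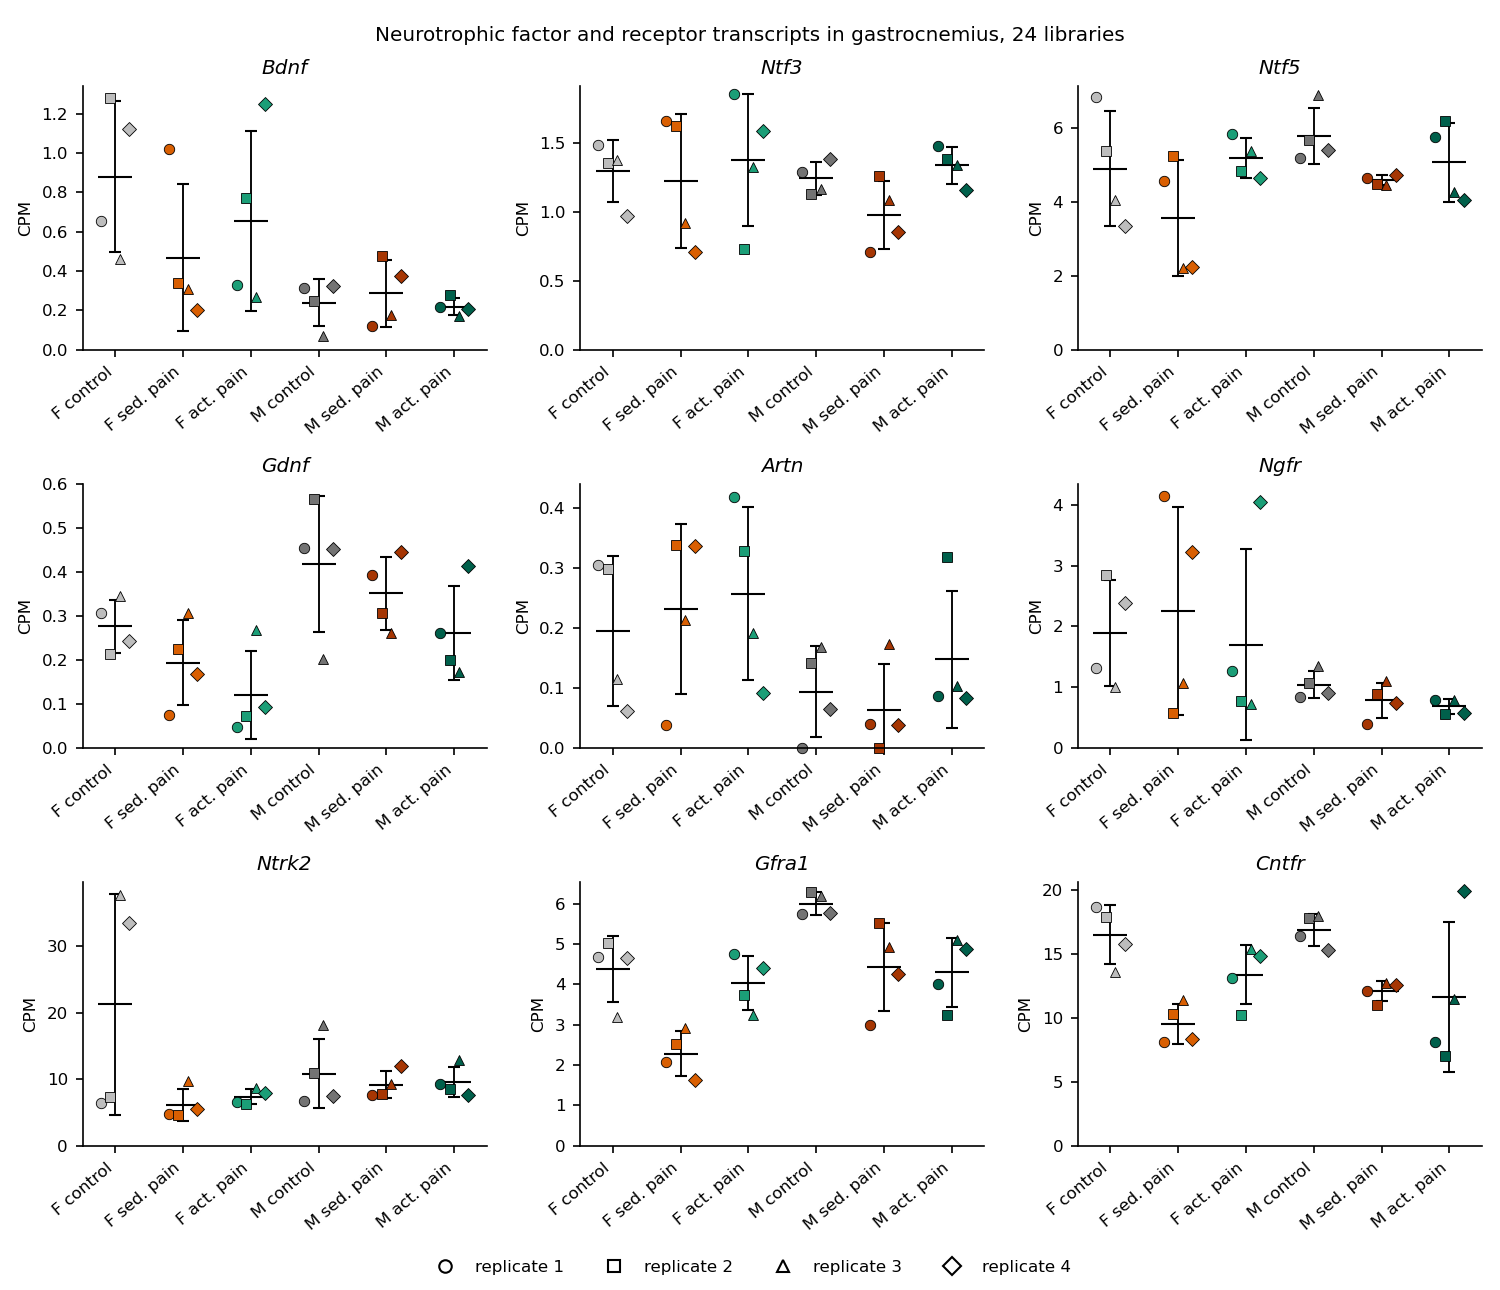
CPM of the 9 genes in every library, by sex and condition (F female, M male; sed. sedentary, act. active); point shapes mark replicates 1 to 4, horizontal bars the mean and error bars the SD (n = 4). In females Cntfr and Gfra1 are lower in sedentary pain than in controls without overlap, and Ntrk2 is above 30 CPM only in control replicates 3 and 4, at 37.7 and 33.4 CPM.

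The promoters of the 3 receptors called lower in female sedentary pain are shown for their sequence context. RefSeq starts in GRCm38.p6 were matched for 8 of the 9 genes (Ntf5 was not among them). The 250 bases before the start are given 5′ to 3′ on the gene's strand. For Gfra1 and Cntfr this start lies inside the gene span given above, so both windows lie within the annotated gene. Cntfr has 6 RefSeq starts, and the outermost of these is shown, since counts per gene do not tell which start was used. Both strands were searched for CAGCTG, an E-box bound by myogenic factors. A search for GGGCGG, the core of a GC box, was added. The last motif was TATAAA, the core of a TATA box. Capitals mark a match, and no matches overlapped.
Ntrk2, chr13:58806319-58806568, plus strand: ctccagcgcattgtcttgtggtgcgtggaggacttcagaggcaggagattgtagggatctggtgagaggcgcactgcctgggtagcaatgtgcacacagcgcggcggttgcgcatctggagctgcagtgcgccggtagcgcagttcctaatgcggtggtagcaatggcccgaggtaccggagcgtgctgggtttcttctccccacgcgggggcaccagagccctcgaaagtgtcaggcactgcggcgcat
Gfra1, chr19:58455399-58455648, minus strand: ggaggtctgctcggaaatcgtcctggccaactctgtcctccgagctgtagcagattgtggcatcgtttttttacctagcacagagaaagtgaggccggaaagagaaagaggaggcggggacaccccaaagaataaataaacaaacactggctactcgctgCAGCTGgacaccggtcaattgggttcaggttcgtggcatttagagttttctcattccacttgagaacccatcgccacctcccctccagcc
Cntfr, chr4:41696038-41696287, minus strand: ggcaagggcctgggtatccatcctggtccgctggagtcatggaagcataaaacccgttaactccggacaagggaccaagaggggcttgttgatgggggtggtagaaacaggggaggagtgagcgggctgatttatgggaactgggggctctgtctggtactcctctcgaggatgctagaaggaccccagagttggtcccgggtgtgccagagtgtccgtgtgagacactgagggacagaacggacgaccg
Gfra1 held 1 CAGCTG. No other match to the 3 motifs lay in the 3 windows. Among 32851 promoter windows of the same length, 13% held the E-box, 32.7% the GC box and 12.4% the TATA box. The GC content was 62.8% for Ntrk2, 52.4% for Gfra1 and 58.8% for Cntfr, and the median of all windows was 52.4%.

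In females that had run before the pain model, Gfra1 was higher than in sedentary pain and Cntfr lay between the other groups. Gfra1 had 4.75, 3.73, 3.24 and 4.40 CPM in active pain, all above the 1.62 to 2.91 CPM of sedentary pain. The log2 difference was 0.79 ± 0.23, or 1.73-fold (edgeR adjusted p = 0.0452), and Gfra1 was the 1 member of 7 called, while 2.51% of all genes were called higher and 5.93% were higher without overlap. This call lay close to the threshold: it was lost in 11 of 12 fits that left out 1 library, with log2 differences of 0.64 to 0.93, and remained only without control replicate 3. With replicates 1 and 2 as the only sedentary pain libraries, which leaves out those with the highest macrophage sums, the difference was 0.80 (adjusted p = 0.281). No gene at all passed in that fit, nor in some of those that left out 1 library. Cntfr had 13.1, 10.2, 15.4 and 14.8 CPM in active pain, where replicate 2 fell within the sedentary pain values. Its difference from sedentary pain, 0.46 ± 0.17 (log2), did not pass (edgeR adjusted p = 0.0932), but passed with a correction for GC content and length (adjusted p = 0.0309). Ntrk2 had 6.57, 6.33, 8.65 and 7.98 CPM, a difference of 0.23 ± 0.53 from sedentary pain (edgeR adjusted p = 0.777).

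Against control, no member of 7 passed in female active pain, as no gene of 14511 did (0%). Gfra1 differed by −0.11 ± 0.23 (edgeR adjusted p = 0.896) and Cntfr by −0.29 ± 0.17 (adjusted p = 0.826) on the log2 scale, and both groups overlapped. Ntrk2 differed by −1.53 ± 0.53 (unadjusted p = 0.0139, edgeR adjusted p = 0.603), again with its control replicates 3 and 4 above all active pain libraries: with replicates 1 and 2 as the only controls the difference was 0.12. The 2 pain groups were compared with the same controls. In active pain the macrophage sum was 207 to 404 CPM, the adipocyte sum 37.7 to 89.4 CPM and the neutrophil sum 4.52 to 110 CPM. The smooth muscle and pericyte sum was 282 to 368 CPM, against 189 to 308 in sedentary pain, with 1 of 5 called higher (2.51% of all genes). Of 10 macrophage markers, 8 were called lower than in sedentary pain, where 9.41% of all genes were. Mitochondrial genes made up 6.67 to 11.44% of active pain libraries and 2.75 to 8.22% of sedentary pain libraries, with overlap. The part of these cells and of the mitochondrial share in the Gfra1 difference was not tested.

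**Figure D4:**
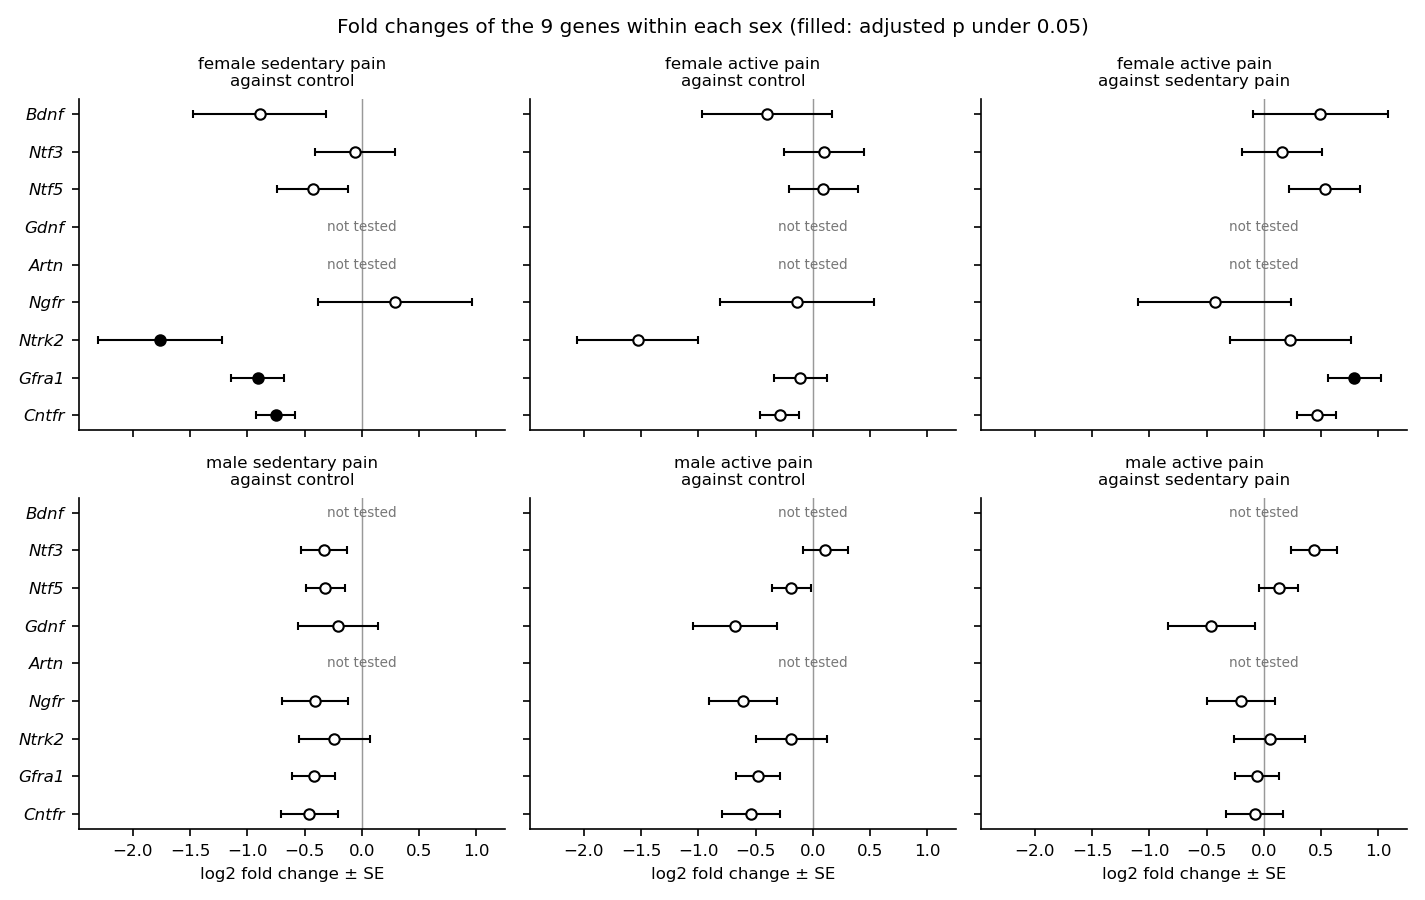
Log2 fold changes ± SE (horizontal) of the 9 genes (vertical) in the 6 comparisons within a sex; filled points have an edgeR adjusted p under 0.05, and genes removed by the low-count filter are marked as not tested. The filled points are Ntrk2, Gfra1 and Cntfr in female sedentary pain against control and Gfra1 in female active against sedentary pain.

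In males no member passed the test in any of the 3 comparisons (0 of 7 in each, and 0% of all 14404 genes). In sedentary pain against control all 7 members tested had a negative log2 difference, as did 51% of all genes, with a median of −0.33 against −0.01 for all genes. Gfra1 was at 5.74, 6.30, 6.20 and 5.77 CPM in male controls and at 3.0, 5.53, 4.93 and 4.27 CPM in male sedentary pain, with no overlap. The difference was −0.42 ± 0.19 (log2; unadjusted p = 0.0464, edgeR adjusted p = 0.559). Cntfr was at 16.4, 17.8, 18.0 and 15.3 CPM in male controls and at 12.1, 11.0, 12.7 and 12.6 CPM in male sedentary pain, also without overlap, a difference of −0.46 ± 0.25 (edgeR adjusted p = 0.608). Together with Ntf5 these are 3 of 7 members that lay below the controls without overlap, as did 2.93% of all genes tested.

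In male active pain 2 of 7 members, Gfra1 and Ngfr, lay below the controls without overlap, as did 2.82% of all genes. Ngfr had 0.839, 1.06, 1.34 and 0.903 CPM in male controls and 0.782, 0.558, 0.793 and 0.579 CPM in active pain. Gfra1 had 4.0, 3.23, 5.10 and 4.88 CPM, all below the controls (−0.48 ± 0.19; edgeR adjusted p = 0.626). Cntfr had 8.13, 7.01, 11.5 and 19.9 CPM, with replicate 4 above every control (−0.54 ± 0.25; edgeR adjusted p = 0.634). Ntrk2 differed from control by −0.24 ± 0.31 in male sedentary pain (edgeR adjusted p = 0.698) and by −0.19 ± 0.31 in male active pain (adjusted p = 0.751). Between male active and sedentary pain, no member had an unadjusted p under 0.05 (0.84% of all genes did), and all groups overlapped (0.701% of all genes did not).

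Whether the sexes differed was tested on the change itself, with all 24 libraries. None of the 8 members tested passed in any of the 3 tests, nor did any of 15103 genes (0%). For sedentary pain against control the male change minus the female change was 0.45 ± 0.29 for Gfra1 (edgeR adjusted p = 0.664), 0.25 ± 0.32 for Cntfr (adjusted p = 0.799) and 1.48 ± 0.64 for Ntrk2 (unadjusted p = 0.0311, adjusted p = 0.479). The fall of these receptors in females is therefore not shown to differ from the values in males. For active against sedentary pain the difference was −0.82 ± 0.30 for Gfra1 (unadjusted p = 0.0115, edgeR adjusted p = 0.246) and −0.51 ± 0.32 for Cntfr (adjusted p = 0.441). The Gfra1 difference was −0.96 and passed (adjusted p = 0.0337) when male sedentary pain replicate 1, the library with the lowest male Gfra1 at 3.0 CPM and the highest neutrophil and macrophage marker sums of the 12 male libraries (291 and 665 CPM), was left out. Between controls, Gfra1 was higher in all 4 males than in all 4 females, as were 12.5% of all genes (0.43 ± 0.21; edgeR adjusted p = 0.332), and no member of 8 passed, while 2.83% of all genes did (1.54% higher and 1.28% lower in males).

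The wider pathway was followed in 8 lists of 54 genes, 45 of them besides the 9 members. In female sedentary pain against control, 37 of those 45 were tested, 6 were called higher and 8 lower, and the median log2 change was −0.17. Of all genes in this comparison 33.5% were called, 19.6% higher and 13.9% lower. Of the tested ligand genes, Clcf1 was called higher and none lower. Clcf1, a CNTF receptor ligand of the cytokine class, rose from 0.272 to 0.554 CPM in controls to 0.376, 1.63, 2.33 and 2.96 CPM (2.20 ± 0.55 log2; edgeR adjusted p = 0.0129). Over the sedentary pain libraries Clcf1 followed the order of the macrophage sums, and its lowest value lay within those of controls. The part of macrophages was not tested. Cntf itself had few counts, with 0 to 0.263 CPM in the 24 libraries.

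Of the 8 neurotrophin receptor and co-receptor genes, 6 were tested, 4 were called lower and none higher, where 13.9% of all genes were called lower. Besides Ntrk2 these were Ntrk3, Sort1 and Sorcs1. Ntrk3, the TrkC gene, was at 0.569, 0.639, 3.85 and 3.09 CPM in controls and at 0.151, 0.225, 0.245 and 0.505 CPM in sedentary pain (−2.80 ± 0.68; edgeR adjusted p = 0.0117). Its 2 high controls were those with high Ntrk2 and adipocyte markers, and with replicates 1 and 2 as the only controls the change was −1.03 (adjusted p = 0.18). Sort1, the gene of the proneurotrophin co-receptor sortilin, fell from 92.0, 105, 129 and 137 CPM to 74.0, 51.5, 80.2 and 48.6 CPM (−0.84 ± 0.20; edgeR adjusted p = 0.0111). Sorcs1, a related sorting receptor, changed by −1.39 ± 0.46 (edgeR adjusted p = 0.0372). With controls 1 and 2 as the only controls, none of the 4 passed, with −0.60 for Sort1 (adjusted p = 0.0895) and −1.65 for Sorcs1 (adjusted p = 0.064). In the CNTF receptor list, Lifr fell with Cntfr (−0.64 ± 0.22; edgeR adjusted p = 0.0442), and the shared chain Il6st did not pass.

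In the GDNF receptor list, Gfra1 was the 1 gene called lower and Sdc3 the 1 called higher of 6 tested. Of all genes, 13.9% were called lower and 19.6% higher. Sdc3, a syndecan that binds GDNF, rose from 19.4, 21, 20.1 and 26.8 CPM to 53.0, 108, 219 and 349 CPM (3.11 ± 0.49; edgeR adjusted p = 0.0026). Its order over the 4 sedentary pain libraries was that of the macrophage sums, and the part of macrophages was not tested. Ret, the signalling receptor for GDNF, was at 3.81 to 8.01 CPM in female controls and at 3.97 to 7.83 CPM in sedentary pain and did not pass. The list of proneurotrophin-cleaving enzymes also holds plasminogen activators, among them Plau. In it Mmp3 (2.13 ± 0.68; edgeR adjusted p = 0.0332), Mmp9 (1.65 ± 0.56; adjusted p = 0.0407) and Plau (0.79 ± 0.23; adjusted p = 0.0254) rose. These were 3 of 6 tested, where 19.6% of all genes were called higher, and Furin did not pass. Mmp3 was at 2.06, 1.07, 5.5 and 3.9 CPM in controls and at 5.23, 31.6, 7.14 and 10.8 CPM in sedentary pain, with replicate 2 highest. Mmp9 was likewise highest in replicate 2, at 25.1 CPM against 4.78 to 6.97 CPM in the other 3. Without that library the 3 calls were lost, at 1.34 for Mmp3 (adjusted p = 0.109), 0.78 for Mmp9 (adjusted p = 0.148) and 0.64 for Plau (adjusted p = 0.0662). The same library had the highest sum of 5 neutrophil markers, 243 CPM, against 20.9 to 54.5 in the other sedentary pain libraries and 0.885 to 3.48 in controls, while the macrophage sum was highest in replicates 3 and 4. The part of these cells was not tested.

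Of 14 adaptor genes tested, Grb2 rose (0.66 ± 0.15; edgeR adjusted p = 0.00796) and 4 fell, where 33.5% of all genes were called in either direction. Shc2, an adaptor of Trk receptors, fell from 7.74, 7.28, 4.77 and 7.69 CPM to 2.79, 2.82, 3.34 and 3.16 CPM (−1.14 ± 0.19; edgeR adjusted p = 0.0029). The other 3 were Frs2 (−0.76 ± 0.26; adjusted p = 0.0429), Dok4 (−0.53 ± 0.19; adjusted p = 0.0494) and Plcg1 (−0.43 ± 0.11; adjusted p = 0.0135). In female active against sedentary pain, Sdc3 (−2.44 ± 0.47; edgeR adjusted p = 0.0328) and Clcf1 (−1.88 ± 0.53; adjusted p = 0.0423) were lower, as were 9.41% of all genes, and Shc2 was higher (0.65 ± 0.19; adjusted p = 0.0449), as were 2.51% of all genes. With Gfra1 these were 4 of 44 list genes tested, where 11.9% of all genes were called in either direction. No gene of the lists passed in female active pain against control or in males. Over the 26 alternatives of female sedentary pain against control, Sdc3, Shc2, Sort1, Clcf1, Grb2, Ntrk3 and Plcg1 were called in 22 to 25, Plau in 16, Mmp3 and Sorcs1 in 14, Frs2 in 12, Mmp9 in 11, and Dok4 and Lifr in 9. With sedentary pain replicates 1 and 2 only, which leaves out the libraries with the highest macrophage sums, the change was 1.91 for Sdc3 (edgeR adjusted p = 0.0127) and 1.27 for Clcf1, which did not pass (adjusted p = 0.162). Of 25 alternatives for active against sedentary pain, Sdc3 was called in 16, Clcf1 in 9 and Shc2 in 8, and none of the 3 with sedentary pain replicates 1 and 2 only.

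**Figure D5:**
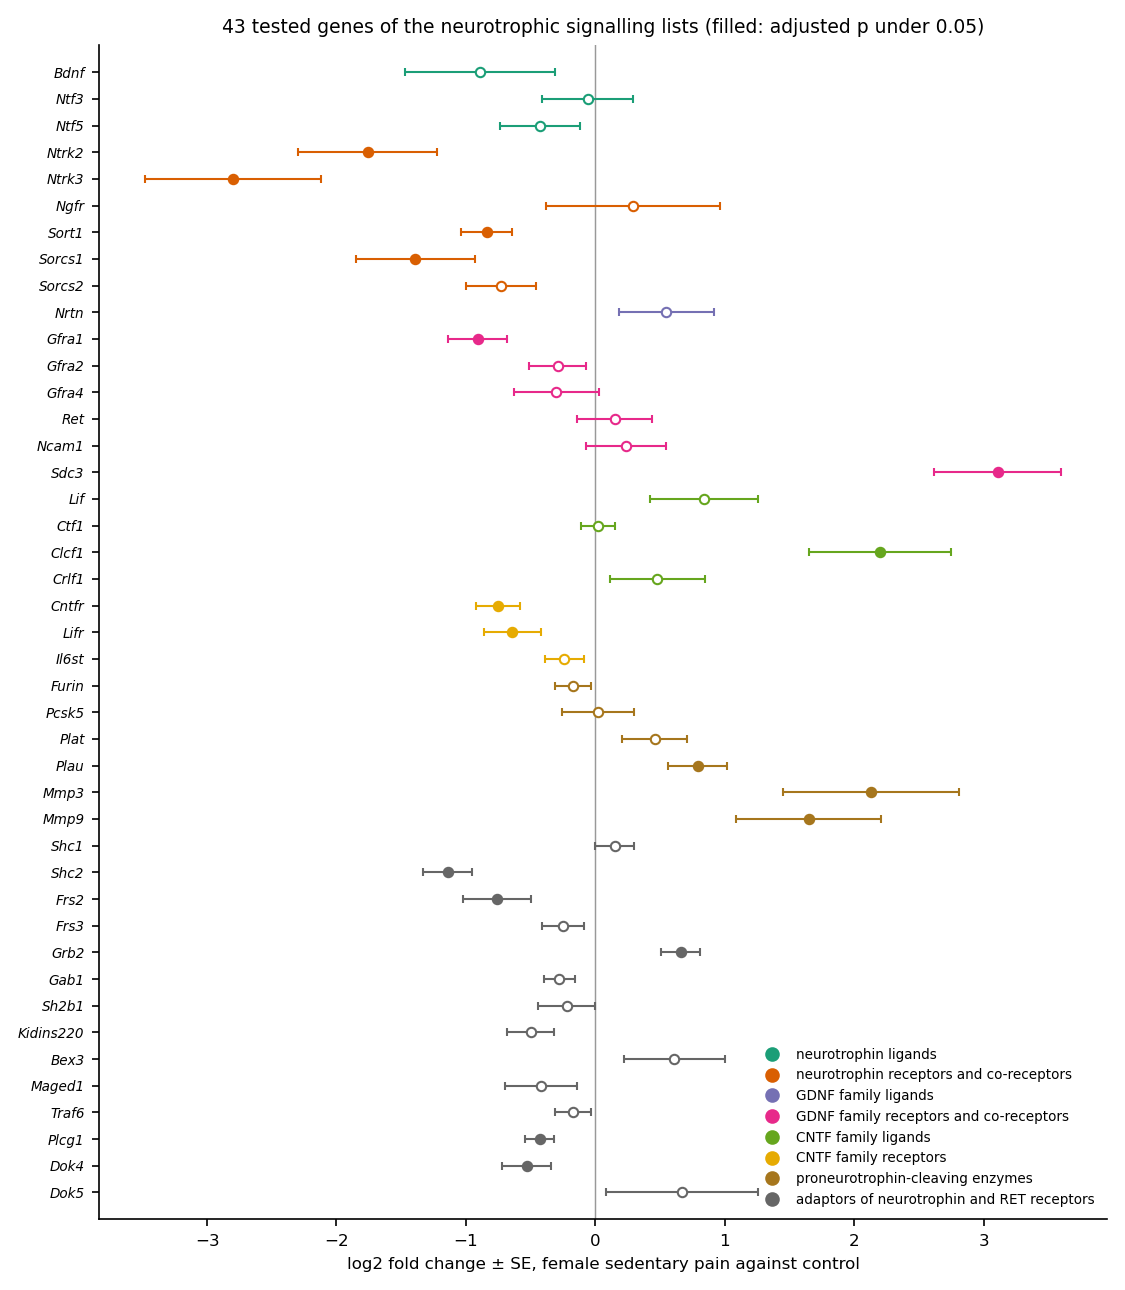
Log2 fold changes ± SE (horizontal) of 43 of the 44 tested genes of the 8 lists (vertical, coloured by list) in female sedentary pain against control; filled points have an edgeR adjusted p under 0.05. Filled receptor points lie left of 0 except Sdc3 at 3.11. Filled points of Clcf1 and of the list of cleaving enzymes and plasminogen activators lie right of 0.

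Between male and female controls 3 of 46 tested genes of the lists were called, where 2.83% of all genes were. Shc2 was at 27.2, 27.3, 23.5 and 19.7 CPM in male controls against 7.74, 7.28, 4.77 and 7.69 in female controls (1.81 ± 0.21; edgeR adjusted p = 1.7e-05). Sorcs1 was at 2.97, 3.86, 3.32 and 3.77 CPM in males against 0.831, 0.767, 0.385 and 0.696 in females (2.36 ± 0.39; edgeR adjusted p = 0.000937). Both were higher in every male control than in every female control, as were 12.5% of all genes tested. Ntrk3 was lower in males (−1.95 ± 0.52; edgeR adjusted p = 0.0435), but with female controls 1 and 2 as the only female controls the difference was −0.18, and it was called in 15 of 35 alternatives. In the same fit Sorcs1 differed by 2.1 and did not pass (adjusted p = 0.0747).

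The genes whose levels followed each member most closely over the 24 libraries are given as a description. The correlations are Pearson's r of log2 CPM over up to 10585 genes in libraries that share tissue, depth and cell makeup. Ntrk2 was most like Aoc3 (r = 0.94), Pde3b (0.92) and Mmd (0.92). Gfra1 was followed closely by Ccdc85c and Eml1 (0.92 each). For Cntfr the closest were Pitpnc1 (0.77), Tecpr1 (0.77) and Atg2a (0.75), and for Ntf5 Smarcd3 (0.88), Cacng6 (0.87) and Hhatl (0.87). Bdnf was closest to Rab3ip (0.84), Ngfr to Dis3l2 (0.80), Ntf3 to Carns1 (0.72) and Gdnf to Smad7 (0.70).

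Markers of innervation were set beside the receptors. A list of 8 genes that rise in denervated or non-junctional fibres, among them acetylcholine receptor subunits, was summed. It reached 59.0 to 64.3 CPM in female controls, 82.1 to 158 in female sedentary pain and 60.2 to 91.1 in female active pain. In sedentary pain against control 4 of 6 tested were called higher, where 19.6% of all genes were. The 8 axon and neuron markers summed to 2.75 to 3.92 CPM in female controls and 4.14 to 7.27 CPM in female sedentary pain, without overlap. Of the 2 tested, Tubb3 was called higher and Stmn2 did not pass. In males the denervation sums were 54.2 to 60.9, 56.3 to 157 and 44.8 to 85.0 CPM. The highest male value, 157 CPM, was that of sedentary pain replicate 1, which also had the lowest Gfra1 of the 12 male libraries, at 3.0 CPM. That library had a neutrophil marker sum of 291 CPM, against 2.27 to 2.75 CPM in the other 3 of its group, and the highest macrophage sum of the male libraries, 665 CPM. Schwann cell markers summed to 111 to 152 CPM in female sedentary pain, within the 120 to 286 CPM of controls or just below it. Of 16 tested against control, 1 was called higher and 2 lower, with a median log2 change of −0.48. Of all genes, 19.6% were called higher and 13.9% lower. The part of these cells in the receptor values was not tested.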

How the data were processed

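RNA of 24 left gastrocnemius samples was sequenced. Per the labels' protocols, the authors used an RNeasy fibrous tissue kit and a further cleaning step, then built strand-specific TruSeq libraries (0.5 µg RNA each) for NovaSeq sequencing (100 bases, paired). What the authors deposited are raw counts, whole numbers for each of 54532 Ensembl genes. Per the submitters' processing notes, HISAT2 2.1.0, Salmon 0.9.1, featureCounts and DESeq2 1.24.0 were used with mm10 and GRCm38.p6; their roles and the use of strand in counting are not given in the sources used here. GENCODE M21 (GRCm38) gave positions and exon lengths, and 54495 genes matched.

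Samples were grouped by their labels. After TMM scaling, filterByExpr removed scarce genes (at least 10 counts asked, groups as design), and the rest were tested with edgeR 4.0.16 in R 4.3.3 (quasi-likelihood F tests, robust, two-sided), each sex on its own 12 samples, and interactions and the control comparison on all 24. Adjusted p-values are Benjamini-Hochberg over all genes tested, and SE is the log2 change divided by the square root of F. CPM used TMM factors over 24 libraries, and RPKM divided CPM by exon length. A gene was below detection if more than 12 libraries had 3 counts or fewer. On simulated data with 200 changed genes, the female fit recovered 39% of 2-fold and 77% of 4-fold changes among 14391 genes, and the male fit 44% and 82% among 14250. False calls numbered 5 and 2. Far more genes, 4867, were called in female sedentary pain, so these shares do not give the power of that test. Total counts of 17612139 to 34039699 limit the precision of the scarce genes, and intervals and floors cover counting error only.

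The 9 genes and the lists were chosen with earlier results of these data known. All 9 were named whatever their values, with list genes past the threshold in a comparison within a sex and the 3 genes most like each member (mean log2 CPM of at least 1, prior count 2). Cntf, Ret, Furin and Il6st fall outside this rule and were chosen after their values were seen. Some genes that the rule or the lists hold are not reported here. Alternatives were DESeq2 1.42.0, RLE scaling, no low-count filter, no robust step, the replicate number as a block, library number as a covariate, 1 surrogate variable (sva 3.50.0), a GC and length correction (splines with 5 degrees of freedom), replicates 1 and 2 or 3 and 4 only, other sample sets and each library left out. Promoters come from RefSeq (GRCm38.p6), and the 50 bases after the start were left out. Figures used matplotlib 3.10.9 under Python 3.11.15.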

Additional observations from a re-analysis of the deposited data

Results flagged for a closer look

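In 3 of the 54 sets of 4 values (9 genes in 6 groups), 1 library lay far from the other 3 by Dixon's test, and chance flags about 1 in 20 sets. Ngfr was 4.04 CPM in female active pain replicate 4 (132 counts), against 0.724 to 1.26 CPM in the others. Bdnf was 1.02 CPM in female sedentary pain replicate 1 (27 counts), against 0.202 to 0.338 CPM. Artn was 0.319 CPM in male active pain replicate 2 (8 counts), against 0.0827 to 0.103 CPM.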

How the results depend on the processing

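The calls of Gfra1 and Cntfr in female sedentary pain against control held in 24 of 26 alternatives each, and were lost in replicates 1 and 2 only (−1.04 and −0.95) and replicates 3 and 4 only (−0.75 and −0.53), which have fewer samples. The Ntrk2 call held in 15 of 26. Gene counts of that comparison moved from 4867 to 238 in replicates 1 and 2 only, 2847 with only the 2 groups compared, 2536 with female controls 1 and 2 as the only controls, 1440 with female sedentary pain 1 and 2 as the only ones, and 2486 to 6674 when 1 library was left out (2486 without sedentary pain replicate 4, and 3107, 2864 and 3161 without control replicate 1, 2 or 4). Member counts moved from 3 to 0 in replicates 1 and 2 only and 1 in replicates 3 and 4 only, and were 2 to 4 when 1 library was left out (4, with Bdnf, without sedentary pain replicate 1). Female active against sedentary pain moved from 1730 genes to 3010 with DESeq2, 174 with no low-count filter, 2745 with library number, 0 in replicates 1 and 2 only, 0 with the 2 groups compared, 0 with sedentary pain 1 and 2 as the only ones, and 0 to 4316 when 1 library was left out (0 without active pain replicate 1, 2 or 4 or sedentary pain replicate 4, 3 without sedentary pain replicate 3, 4316 without sedentary pain replicate 1). Its member count of 1 became 0 with no low-count filter, in replicates 1 and 2 only, with the 2 groups compared and with sedentary pain 1 and 2 as the only ones, 2 with the GC and length correction, and 0 to 1 when 1 library was left out.

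In female active pain against control, genes called were 125 with DESeq2 and 155 in replicates 3 and 4 only, where 1 member passed. Male sedentary pain gave 270 genes with DESeq2 and 5 with a surrogate variable, and male active pain 127 and 7. The sex differences gave 15, 3 and 133 genes with DESeq2 (sedentary pain, active pain, active against sedentary pain) and 1349, 11 and 1222 in replicates 3 and 4 only, where 1 member passed in the last. Leaving out 1 library gave 0 to 18, 0 to 1 and 0 to 2174 genes, and 0 to 1 members in the last (2174 genes and Gfra1 without male sedentary pain replicate 1). Between controls, 427 genes became 720 with DESeq2, 804 with a surrogate variable, 12 in replicates 1 and 2 only, 885 in replicates 3 and 4 only, 108 with female controls 1 and 2 as the only controls, and 198 to 622 when 1 library was left out. There, 1 member passed with DESeq2, with a surrogate variable, with the GC and length correction, and 0 to 1 when 1 library was left out. With detection from 10 counts, 3 members were below detection.

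Signs turned for 10 results, none of them of Gfra1. In female sedentary pain Ntf3 was 0.24 in replicates 1 and 2 only and 0.36 with sedentary pain 1 and 2 as the only ones (−0.22 to 0.15 when 1 library was left out), Ntf5 was 0.02 with the latter, and Ngfr was −0.13 to 0.60 when 1 library was left out. In female active pain against control, Ntrk2 was 0.12 with controls 1 and 2 as the only controls and Cntfr 0.02 in replicates 3 and 4 only. Ntrk2 in males was 0.008 (sedentary pain) and 0.16 (active pain) with the GC and length correction, 0.02 in active pain in replicates 1 and 2 only, and −0.40 to 0.15 and −0.35 to 0.20 when 1 library was left out. Its sex difference of active against sedentary pain was 0.0036 with that correction and −0.50 to 0.0015 when 1 library was left out. Between controls Ntrk2 was 0.31 in replicates 1 and 2 only and 0.64 with female controls 1 and 2 as the only controls, and Ntrk3 was 0.06 in replicates 1 and 2 only. The cause of these changes was not tested, beyond the fewer samples in some fits.

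Replicate numbers 1 to 4 recur in every group, and same-numbered libraries did not vary together in every pair (mean correlation of residuals 0.109 in females and 0.0132 in males). With the replicate block, 3739 genes and 3 members were called in female sedentary pain, 1629 genes and 0 members in female active against sedentary pain (Gfra1 adjusted p = 0.0816), and 337 genes between controls. Of the list genes the block ended the calls of Lifr (adjusted p = 0.0714), Frs2 (0.0921), Mmp9 (0.0929) and Dok4 (0.0516) in female sedentary pain, Shc2 in active against sedentary pain (0.0838) and Ntrk3 between controls (0.117). The block fit made no call in the other comparisons. The 2 fits on female controls 1 and 2 and on female sedentary pain 1 and 2, were chosen after seeing the data.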
